A study of Drosophila melanogaster with 6 samples.

Results

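The sigma, theta, omega, zeta and microsomal glutathione transferases of Drosophila melanogaster were taken as every probe set that GEO's platform annotation assigns to 1 gene and whose symbol begins GstS, GstT, GstO or GstZ with a number or is Mgstl. This gave 14 probe sets for 10 genes, out of 14010 probe sets and 10845 genes named on the array. The genes were GstS1 of the sigma class, GstT2, GstT3 and GstT4 of the theta class, GstO1, GstO2 and GstO3 of the omega class, GstZ1 and GstZ2 of the zeta class, and Mgstl, the microsomal enzyme. GstO2 and Mgstl had 3 probe sets each and the other 8 genes 1 each. The gene sepia (se), also an omega enzyme, falls outside the rule by its symbol, and GstT1 was not analysed here.

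The RNA came from Kc-167 cells, an embryonic fly line that grows in suspension. Both groups took up double-stranded RNA, 20 µg for 1 hour without serum. Serum was added to both groups alike, and the cells were harvested after 5 days. In the 3 control RNAi samples the double-stranded RNA was directed against the bacterial gene beta-lactamase, which has no target in fly cells, and in the 3 Enigma RNAi samples against Enigma (CG9006, symbol Egm), which encodes a mitochondrial relative of the acyl-CoA dehydrogenases. Both groups therefore carried active RNA interference, and the line has no other stated genetic change. The samples of each group are numbered 1 to 3 in their titles, and arrays that share a number are called a pair below. Nothing in the labels says that the replicates came from separate cultures, so the p-values measure only the spread between these arrays, which may be technical.

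Glutathione transferases join the tripeptide glutathione to reactive or foreign molecules, or use it to reduce or rearrange them. The cytosolic classes are soluble enzymes of a shared fold and the microsomal enzyme is an unrelated membrane protein with a similar activity. In flies the delta and epsilon classes are the ones best known for insecticide detoxification, while the classes described here are older in evolution and include members with fixed places in metabolism. In the fly, GstS1 is abundant in flight muscle and conjugates products of lipid peroxidation. Omega enzymes reduce dehydroascorbate and mixed disulfides with glutathione, and zeta enzymes isomerise maleylacetoacetate in the breakdown of tyrosine.

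Levels are given as log2 GCRMA values, and every difference is the Enigma RNAi mean minus the control mean on that scale unless a fold is stated. A level of 1 probe set cannot be set against that of another, since probes differ in how strongly they bind. Only probe sets with values over 4 on 3 or more of the 6 arrays were tested, which were 6975. The threshold was an adjusted p under 0.05 over all of them (limma, Benjamini-Hochberg). In this bulk RNA, fewer cells of a type and less RNA per cell cannot be told apart.

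The Enigma transcript was lower in all 3 pairs, at 6.00, 6.41 and 6.71 in controls 1 to 3 and 3.24, 3.51 and 4.21 after Enigma RNAi. Its difference was -2.72, which did not pass without the replicate number as a block (limma, adjusted p = 0.283) and passed with it (limma, adjusted p = 0.000118). An exact permutation test over the arrays, two-sided, gave p = 0.1, which is the lowest p possible with 3 against 3 arrays. Of 10 plasmatocyte markers on the array 6 were tested, among them the haemocyte genes Hml, srp and Col4a1, while NimC1, eater, Sr-CI and crq stayed below the filter. The summed linear signal of the 10 ranged from 2644 to 8489 in controls and from 3349 to 7327 after Enigma RNAi. Such a sum is weighted to the probe sets with the highest signal, here those of Hml and Nplp2. None of 4 fat body markers was tested. Of 5 muscle markers, the tissue where GstS1 is abundant in the fly, Mlc2 and bt were tested, and up, Act88F and Tm2 stayed below the filter. The summed signal of these 5 was 63.6 to 73.1 in controls and 66.2 to 84.0 after Enigma RNAi, and their part in the GstS1 values was not tested. Mlc2, at 3.81 to 4.57, and bt, at 4.15 to 4.54, lay close to the filter, so this sum holds mostly low signal. Of 4 glial markers 1 was tested, the glutamine synthetase Gs2, which was higher in all 3 pairs by a mean of 0.81 and passed with the block (limma with the block, adjusted p = 0.0282), while repo, moody and wrapper stayed below the filter. The summed signal of these 4 was 65.4 to 92.7 in controls and 86.2 to 145 after Enigma RNAi, and its part in the members' values was not tested. As a measure of RNA quality, the 3' minus the 5' signal of eIF4A was 1.38 ± 0.14 in controls against 1.71 ± 0.22 in the Enigma RNAi arrays (SD, n = 3; exact permutation p = 0.1) and was higher in each of the 3 pairs. The same measure differed by 0.17 for actin, also higher in 3 of 3 pairs, and by 0.07 for Gapdh, higher in 2 of 3 (exact permutation p = 0.4 for each). Their part in the differences below was not tested.

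No sigma, theta, omega or microsomal transferase passed the threshold after Enigma RNAi. Of the 14 probe sets, 12 for 8 genes were tested, and 0 of the 12 passed without the block, where 0% of all tested probe sets did (limma, lowest adjusted p among the 12 of 0.999). At an unadjusted p under 0.05 the count was 0 of 12, against 4.26% of all. With the replicate block the count was again 0 of 12, against 0.631% of all, with GstS1 closest at 0.42 (limma with the block, adjusted p = 0.0802). At an unadjusted p under 0.05 the blocked fit had 3 of 12, or 25%, against 19.3% of all, and these were probe sets of GstS1, GstT4 and GstO2. The differences of the 12 lay between -0.18 for GstT3 and 0.42 for GstS1. GstS1 met the filter partly through the group where it was higher, with 1 control and 2 Enigma RNAi arrays above 4.

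**Figure D1:**
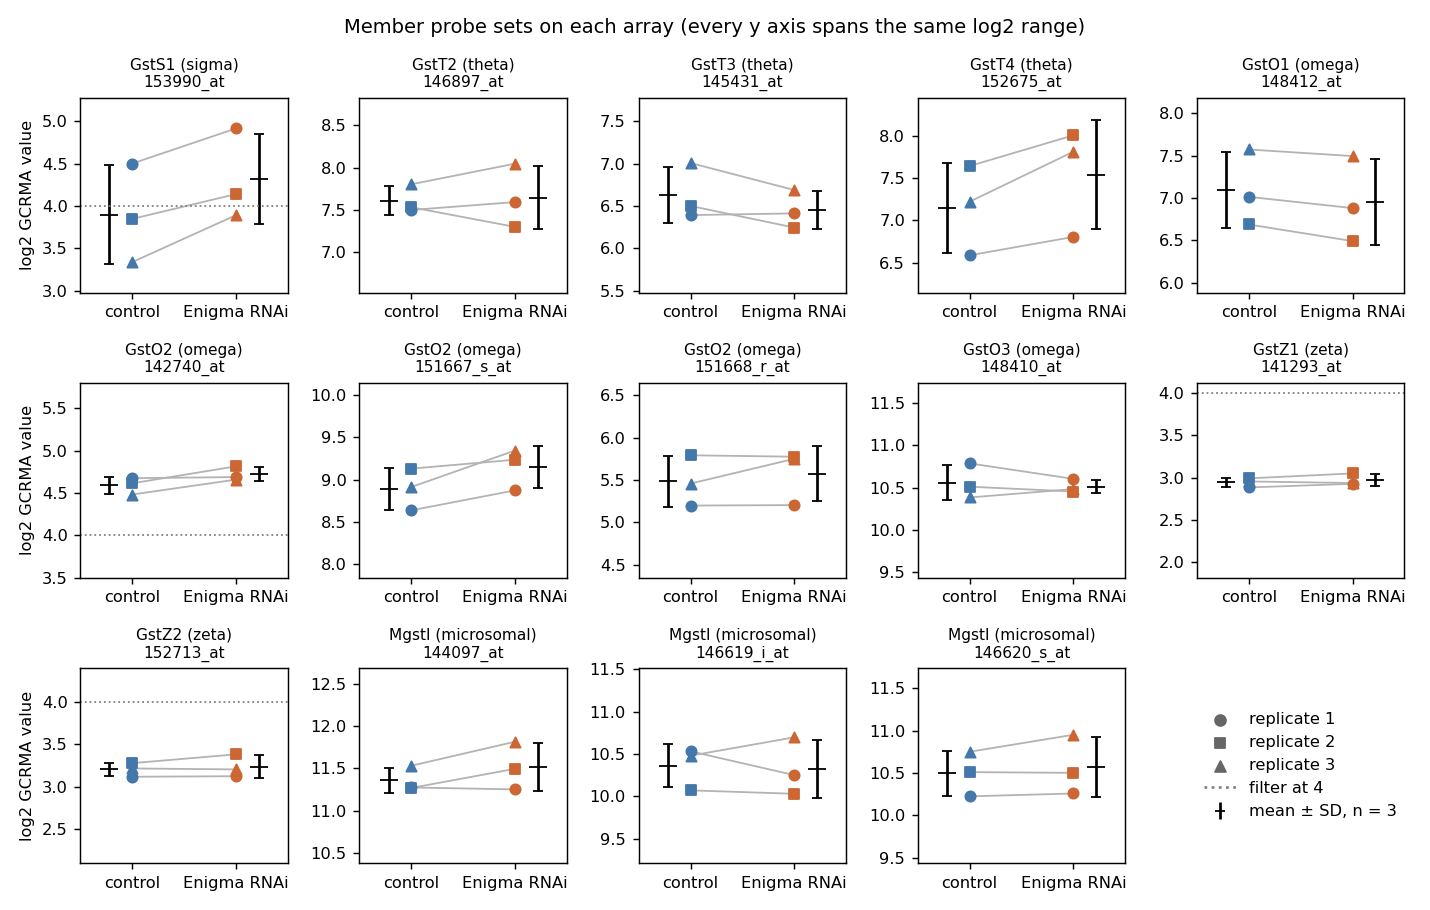
Log2 GCRMA value of each of the 14 member probe sets on the 3 control RNAi and 3 Enigma RNAi arrays, with grey lines joining the arrays of 1 replicate number, black bars for the mean ± SD (n = 3) and a dotted line at the filter of 4. The groups overlap in every panel, and the symbols of 1 replicate number mostly sit at a like height in both groups.

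GstS1, the only sigma enzyme of the set, had 4.50, 3.85 and 3.34 in controls 1 to 3 and 4.91, 4.14 and 3.89 after Enigma RNAi. Each Enigma RNAi array lay above its paired control, by 0.41, 0.29 and 0.55, while the groups overlapped because both arrays of replicate 1 were high and both of replicate 3 low. The mean went from 3.89 ± 0.58 to 4.32 ± 0.53 (SD, n = 3), a difference of 0.42 ± 0.36 (SE), or 1.34-fold with a 95% confidence interval of 0.732 to 2.45. The values lie around the filter. Only 1 control and 2 Enigma RNAi arrays were above 4, and with every value under 4 raised to 4 the difference was 0.18. Leaving out 1 array gave differences from 0.12 without Enigma RNAi 1 to 0.72 without control 1.

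Among 6161 other tested probe sets with 1 gene, those whose values over the 6 arrays were most like those of GstS1 were CG9304 at Pearson's r = 0.994, Ate1, an arginyltransferase, at 0.994 and CG6983 at 0.993. The first 2 put the 6 arrays in the same order as GstS1. These 3 were higher in all 3 pairs, with differences of 0.29, 0.21 and 0.22. They were picked by values that include the group difference of GstS1, so their direction is no separate support for it. The 6 points share the same arrays and replicate numbers, and 156 of the 6161 probe sets reached r of at least 0.9.

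The theta enzymes, a class with members in mammals that act on halogenated compounds, did not share a direction. GstT4 had 6.59, 7.64 and 7.22 in controls 1 to 3 and 6.80, 8.00 and 7.81 after Enigma RNAi. All 3 pairs were higher after Enigma RNAi, by 0.22, 0.36 and 0.59, but the low values of both replicate 1 arrays made the groups overlap. Its difference was 0.39 ± 0.38 (SE), or 1.31-fold with a 95% confidence interval of 0.695 to 2.47, and it ranged from 0.11 without control 1 to 0.76 without Enigma RNAi 1. With the block it did not pass either (limma with the block, adjusted p = 0.110). With the block and without replicate 1 the difference was 0.48 (limma, adjusted p = 0.0422), when 586 of all 6975 probe sets passed. Only the arrays of replicates 2 and 3 remained in that fit, which leaves little to estimate the spread of GstT4 itself.

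GstT3 had 6.39, 6.50 and 7.01 in controls and 6.41, 6.24 and 6.69 after Enigma RNAi. It was lower in 2 of 3 pairs, and its highest value was that of control 3. The difference was -0.18 ± 0.20 (SE), with a 95% confidence interval of -0.66 to 0.29, and it was 0.0024 without control 3. GstT2 had 7.50, 7.53 and 7.80 in controls and 7.59, 7.30 and 8.05 after Enigma RNAi, so that the Enigma RNAi arrays held both its lowest and its highest value. Its difference was 0.03 ± 0.21 (SE), with a 95% confidence interval of -0.46 to 0.53. In the RefSeq gene order GstT2 lies next to GstT1, and whether its probes also bind that transcript was not tested.

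**Figure D2:**
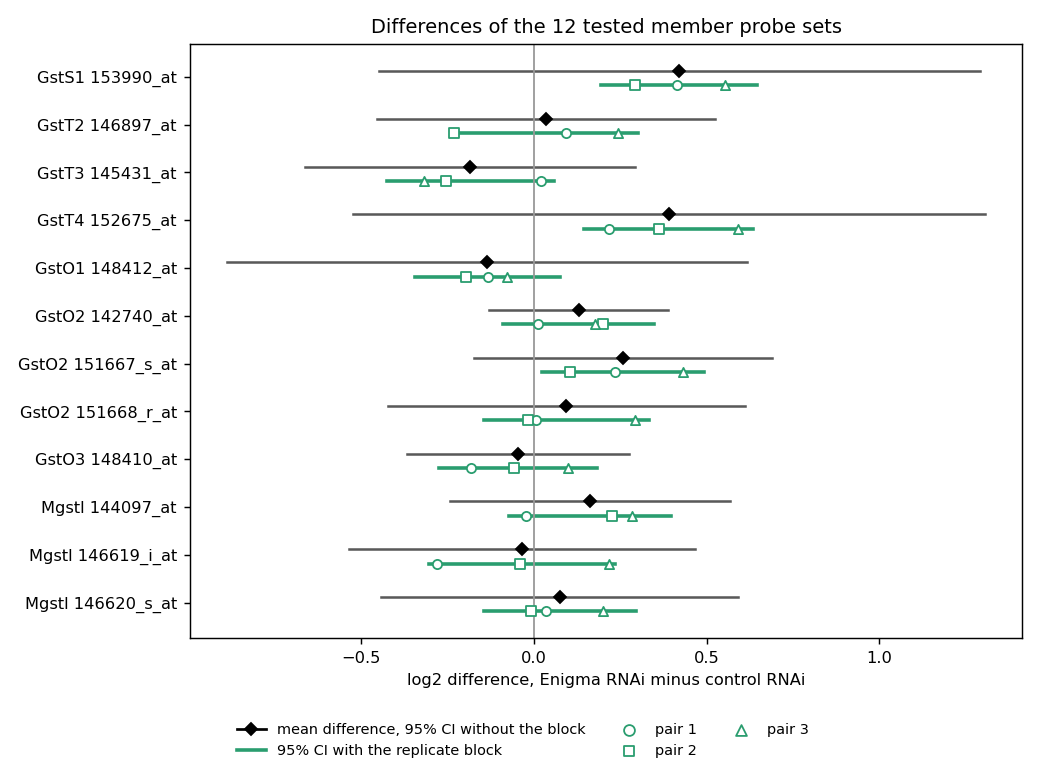
Log2 difference, Enigma RNAi minus control RNAi, of the 12 tested member probe sets, with the mean and its 95% confidence interval without the block in black, the 3 pairs as open symbols, and the interval with the replicate block in green. All 12 black intervals span 0, and the green intervals of GstS1, GstT4 and the GstO2 probe set 151667_s_at lie above 0 before any adjustment.

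The omega genes GstO3, sepia, GstO2 and GstO1 follow each other in the RefSeq gene order, and they too did not move as 1 group. GstO1 had 7.02, 6.69 and 7.57 in controls 1 to 3 and 6.88, 6.49 and 7.50 after Enigma RNAi. It was the only tested member with a lower value in all 3 pairs, by -0.13, -0.20 and -0.08, and these differences were small beside its spread between replicate numbers. The mean difference was -0.14 ± 0.32 (SE), with a 95% confidence interval of -0.89 to 0.62, and it was 0.11 without control 3, 0.10 without Enigma RNAi 2 and 0.17 with array weights. GstO3 had 10.79, 10.51 and 10.39 in controls and 10.61, 10.46 and 10.48 after Enigma RNAi. Its Enigma RNAi values all lay within the range of the controls, and the difference was -0.05 ± 0.13 (SE), with a 95% confidence interval of -0.37 to 0.27.

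The 3 probe sets of GstO2 gave positive differences of unequal size. Probe set 151667_s_at had 8.64, 9.13 and 8.91 in controls and 8.87, 9.24 and 9.35 after Enigma RNAi. It was higher in 3 of 3 pairs, with a difference of 0.26 ± 0.18 (SE) and a 95% confidence interval of -0.17 to 0.69, and did not pass with the block (limma with the block, adjusted p = 0.227). Probe set 142740_at, with values from 4.48 to 4.81 over the 6 arrays, was higher in 3 of 3 pairs by a mean of 0.13 ± 0.11 (SE). Probe set 151668_r_at, with values from 5.20 to 5.79, was higher in 2 of 3 pairs and differed by 0.09 ± 0.22 (SE). Over the 6 arrays 151667_s_at and 151668_r_at correlated at r = 0.907, and 142740_at correlated with them at 0.260 and 0.159, as a description of values that share arrays. Sepia, the omega enzyme that makes a precursor of the red eye pigment drosopterin, had values from 3.88 to 4.11 and was not tested.

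The zeta genes GstZ1 and GstZ2, which are neighbours, were not above 4 on any array. GstZ1 had 2.89, 2.99 and 2.96 in controls and 2.93, 3.05 and 2.94 after Enigma RNAi. GstZ2 had 3.12, 3.28 and 3.21 in controls and 3.12, 3.38 and 3.20 after Enigma RNAi. Neither was tested, and both groups covered nearly the same narrow range. In the tyrosine pathway that zeta enzymes serve, 1 of 4 genes on the array was tested, Faa, the fumarylacetoacetase that acts directly after them. Its difference was 0.54, higher in 3 of 3 pairs, from 5.49 ± 0.45 to 6.03 ± 0.56 (SD, n = 3), and it did not pass (limma, adjusted p = 0.999). The other 3, Tat, Hpd and hgo, stayed below the filter.

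Mgstl, the microsomal enzyme, had 11.27, 11.27 and 11.53 in controls 1 to 3 and 11.25, 11.49 and 11.81 after Enigma RNAi on probe set 144097_at, the one with its highest mean. Pair 1 was level, at -0.02, and pairs 2 and 3 were higher by 0.23 and 0.28. The difference was 0.16 ± 0.17 (SE), or 1.12-fold with a 95% confidence interval of 0.845 to 1.48, and it was 0.015 without Enigma RNAi 3. Its probe set 146620_s_at ranged from 10.22 to 10.95 and differed by 0.08 ± 0.22 (SE), while 146619_i_at ranged from 10.03 to 10.70 and differed by -0.04 ± 0.21 (SE). The sign of 146619_i_at was not stable, since it was 0.0050 after quantile normalization and 0.0058 after cyclic loess. Over the 6 arrays 144097_at correlated at 0.908 with 146620_s_at and at 0.542 with 146619_i_at. CG33177, a gene of the same membrane protein family outside the rule, had non-overlapping groups, at 4.87, 4.81 and 4.18 in controls and 5.34, 5.14 and 5.06 after Enigma RNAi. Its difference was 0.56 and did not pass (limma, adjusted p = 0.999, and 0.0732 with the block).

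The replicate number accounted for more of the variation over the arrays than the RNAi group in 11 of the 12 tested probe sets. It took from 39.2% of the sum of squares over the 6 arrays, for GstO2 on 142740_at, to 96.7%, for GstO1, and exceeded 50% in 11 of 12 tested probe sets, or 91.7%, against 68.4% of all tested probe sets. The median over all tested probe sets was 65.4% for the replicate number and 11.7% for the group. The degrees of freedom alone would give mean shares of 40% and 20%. Such means cannot be set directly against medians, since the shares are skewed. The replicate patterns were not alike. GstS1 was highest in both arrays of replicate 1, GstT4 was lowest there and highest in replicate 2, and GstO1, GstT2 and GstT3 were highest in replicate 3 in both groups.

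**Figure D3:**
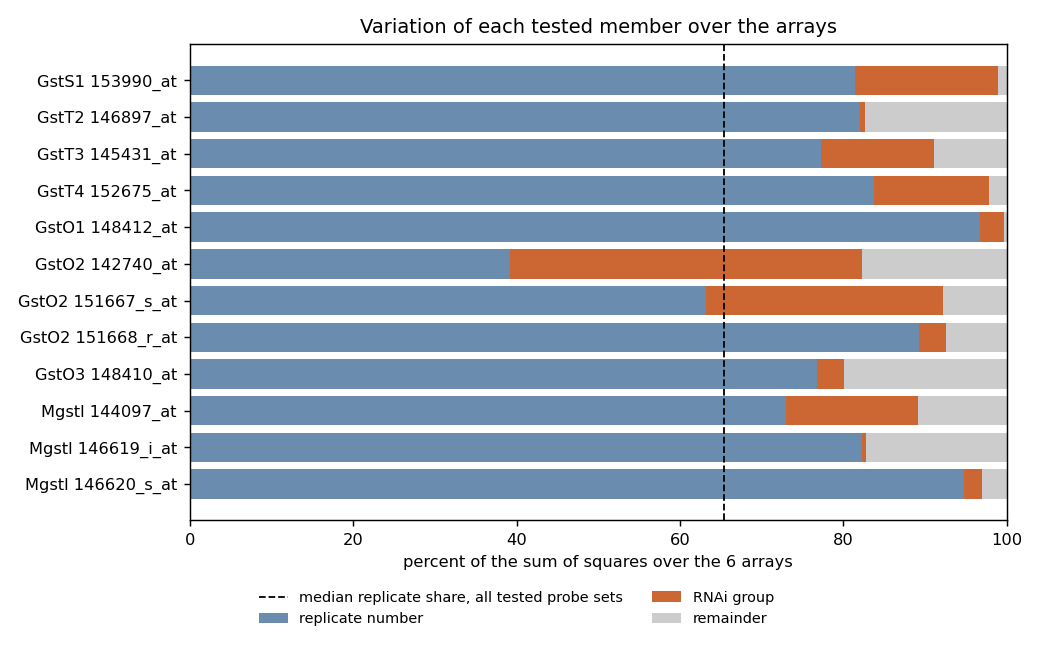
Percent of the sum of squares over the 6 arrays taken by the replicate number, the RNAi group and the remainder for each of the 12 tested member probe sets, with a dashed line at 65.4%, the median replicate share of all tested probe sets. The replicate number takes the largest share in 11 of the 12, and the group takes the largest, 43.0%, for GstO2 on 142740_at.

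The direction of the members across pairs was close to the background when both signs are counted. Of the 12 tested probe sets 5 had the same direction in all 3 pairs, or 41.7%, against 40.2% of all. Counted by sign, 4 of 12 were higher in all 3 pairs, or 33.3%, against 15.0% of all, and 1 of 12 was lower, or 8.33%, against 25.2%. The 4 higher ones stood for 3 genes, GstS1, GstT4 and GstO2. Of these, GstS1 entered partly through the group where it was higher, with 1 control and 2 Enigma RNAi arrays above 4. The groups did not overlap in 0 of 12, against 8.97% of all.

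With the probe set of highest mean for each gene, the 8 tested genes had a median difference of 0.10, against -0.03 over all 5757 tested genes. Of the 8, 5 had a higher and 3 a lower mean after Enigma RNAi. The 5 include GstS1, which met the filter with 1 control and 2 Enigma RNAi arrays above 4. The median was 0.06, 0.02 and 0.26 in pairs 1, 2 and 3, and it lay between -0.0085 without Enigma RNAi 3 and 0.17 without Enigma RNAi 2. It was 0.03 with no filter and also with a mean log2 of at least 6, which change the genes counted. By class it was 0.03 over 3 theta genes and -0.05 over 3 omega genes. The delta and epsilon classes, measured on the same arrays, had medians of 0.95 and 0.51 over 10 tested genes each. Among the delta genes, GstD8 was above 4 on 0 control and 3 Enigma RNAi arrays, so it entered only through the group where it was higher. In each of pairs 1, 2 and 3 the delta median, at 0.81, 0.41 and 1.29, and the epsilon median, at 0.53, 0.22 and 0.60, were above that of the 8 genes. The 10 delta genes had differences from 0.38 to 1.75, so that GstS1 at 0.42 and GstT4 at 0.39 were within their range and the other 6 genes below it. The 10 epsilon genes had differences from -0.36 to 0.88, a range that held all 8 genes. The largest epsilon differences, those of GstE9 at 0.88 and GstE3 at 0.72, did not pass. GstE9 had 4.85 in control 1 against 8.98 and 9.58 in controls 2 and 3, and its pairs differed by 1.90, 0.28 and 0.44. The difference between the classes was not tested. In the same pairs the eIF4A difference between transcript ends was higher after Enigma RNAi by 0.33 on average, and its part was not tested.

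**Figure D4:**
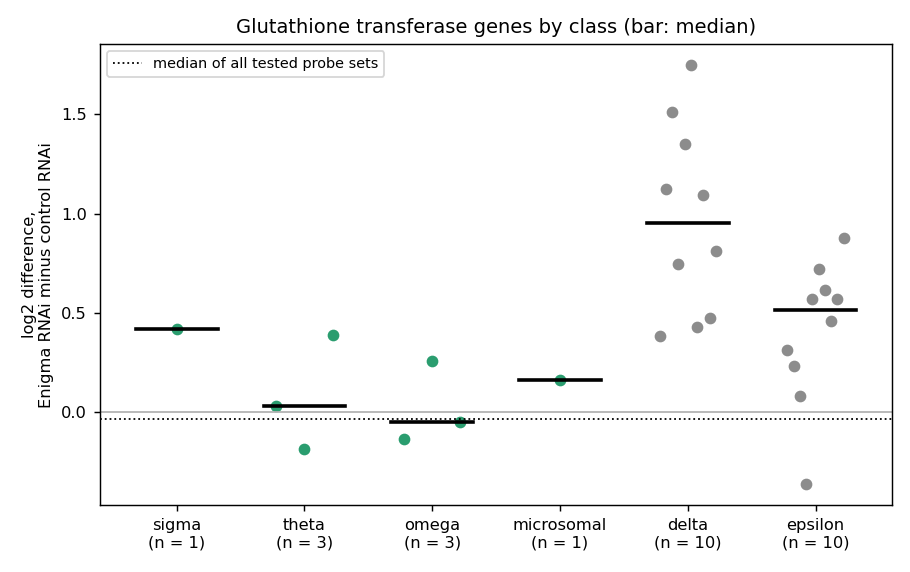
Log2 difference, Enigma RNAi minus control RNAi, of each tested glutathione transferase gene by class, with green points for the sigma, theta, omega and microsomal genes, grey points for the delta and epsilon genes, a black bar at each class median and a dotted line at the median of all tested probe sets. The 8 green points lie between -0.18 and 0.42, and the delta median is 0.95.

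Other genes of glutathione metabolism did not pass either. Among all tested probe sets 0% passed without the block and 0.631% with it, so a count of 0 does not set a gene list apart. Of the glutathione synthesis list 4 of 6 genes on the array were tested and 0 passed in either direction, with or without the block. The largest differences were those of the subunits of glutamate-cysteine ligase, which makes the first intermediate of glutathione. The catalytic subunit Gclc had 8.05, 8.55 and 6.75 in controls and 8.45, 8.57 and 7.95 after Enigma RNAi. Control 3 was the lowest of the 6 arrays, and the pairs differed by 0.40, 0.02 and 1.19, with a mean of 0.54. The modifier subunit Gclm had a smaller difference of 0.25 that was more even over the pairs, at 0.24, 0.20 and 0.31.

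Of the peroxidases and reductases 8 of 10 were tested and 0 passed, with the largest differences for thioredoxin Trx2 at 0.33 and thioredoxin reductase Trxr1, which also recycles glutathione in flies, at 0.26. Both were higher in 3 of 3 pairs. Of 8 genes of pteridine eye pigment synthesis 5 were tested and 0 passed, with Sptr, sepiapterin reductase, at 0.31 and DhpD at -0.25. Of 10 transporters that export glutathione conjugates or drugs, or are related to these, 5 were tested and 0 passed, with CG31793 at 0.36 and Cftr at 0.32, each higher in 2 of 3 pairs. The regulators of the antioxidant response were all tested and 0 of 3 passed. The transcription factor gene cnc differed by 0.09, its partner maf-S by -0.19 and its inhibitor Keap1 by -0.04. Over these pathway lists and the delta and epsilon classes, 2 genes passed with the block, GstD2 and GstD10, both among the 10 tested delta genes. Of all 5757 tested genes, 34 passed with the block.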

How the data were processed

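The deposited table held log2 values of 14010 probe sets on 6 arrays, which per the submitters' processing notes the authors computed by GCRMA. Its version and settings are not given in the sources used here. The log2 scale was taken from the method and from the range of -0.32 to 14.30. Per the labels, 8 µg of total RNA was labelled with biotin. From these values, 44 control probe sets were left out, and probe sets above 4 on at least 3 of 6 arrays entered a linear model in limma 3.58.1 (lmFit, eBayes; R 4.3.3), with two-sided p-values adjusted over all 6975. The sum of squares was divided among replicate number, group and remainder. Precision is limited by having 3 arrays in each group. Names came from GEO's platform annotation, which gave 1 gene for 12444 probe sets and several for 327. By Entrez number 12394 of the 12444 matched RefSeq genes of Release 6 plus ISO1 MT. That annotation names no build, so no coordinates are given.

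The groups came from the sample titles. Deviations from the group means correlated at 0.80, 0.64 and 0.65 for the arrays numbered 1, 2 and 3. Arrays of unlike number were not compared in this way. The pairing therefore rests on the numbers in the titles, and what a shared number stands for is not stated. The alternatives were other filters, normalizations and array weights, a floor at 4, the replicate block, and arrays or pairs left out. The fits were tested on simulated data with planted differences larger than any of the tested members. Detection at the size of the members' differences was not tested. All member probe sets and Enigma were named, and from each pathway list the genes past the threshold or the 2 with the largest difference. Sepia, Keap1, Tat, Hpd, hgo and the cell type markers named were added outside this rule, after their values were seen. The members and lists were chosen with earlier results of these data known.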

Additional observations from a re-analysis of the deposited data

How the results depend on the processing

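The count of members past the threshold was 0 in every setting tried except 1, GstT4, with the replicate block and without replicate 1, and leaving out arrays or pairs gave from 0 to 1. That fit kept only the arrays of replicates 2 and 3. The members' median difference was 0.10, 0.26 with array weights, 0.034 with no filter, 0.035 with a mean log2 of at least 6, and between -0.0085 and 0.17 when arrays or pairs were left out. For Enigma the difference of -2.72 passed with the replicate number as a fixed block (limma, adjusted p = 0.000118) and as a random block (limma, adjusted p = 0.00165), did not pass in the unblocked settings, and ranged from -3.00 to -2.52 without single arrays. With the block and without replicate 1, 2 or 3 it was -2.71, -2.63 and -2.83 and passed. The block changed no call among the members. In the pathway lists it moved the count of genes past the threshold from 0 to 2, and among all 5757 tested genes from 0 to 34. Signs changed for members whose differences were small. GstO1 was 0.17 with array weights, and Mgstl 146619_i_at was 0.20 with array weights, 0.0050 with quantile normalization and 0.0058 with cyclic loess. With the block and a pair left out, signs changed for GstT2 at -0.070 and GstO2 151668_r_at at -0.0057, both without replicate 3, and for GstO3 at 0.021 and Mgstl 146619_i_at at 0.088, both without replicate 1. Without single arrays, GstT2 ranged from -0.17 to 0.21, GstT3 from -0.31 to 0.0024, GstO1 from -0.41 to 0.11, GstO2 151668_r_at from -0.048 to 0.28, GstO3 from -0.14 to 0.066, Mgstl 146619_i_at from -0.22 to 0.11 and Mgstl 146620_s_at from -0.12 to 0.23. The cause of these changes was not tested beyond the arrays left out. The eIF4A difference between transcript ends ranged from 0.21 to 0.43 without single arrays. GstZ1, GstZ2 and sepia did not meet the filter of the main fit. With no filter they were fitted and did not pass, where 0 of all 13966 probe sets passed. At such low signals a real difference may go unseen.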
